A study of Mus musculus with 2 samples.

Results

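The microRNA cluster in the introns of Clcn5 was examined in the kidneys of newborn mice. The cluster was defined by gene name as Mir532, Mir362, Mir188, Mir500, Mir501 and Mir660. The definition used no measured value, but it was made with earlier results of these data known. A row was found for 5 of these 6 genes among the 1973 microRNA genes of the count tables, and Mir660 was not analysed here. The samples were 2 libraries of small RNA from kidney tissue of B6NCrl mice at postnatal day 0, each from the 2 kidneys of 1 pup. Both pups came from the same pregnancy according to the labels, no treatment or genetic change is named, and sex was not collected. The samples form 1 group, so the data give levels within the newborn kidney and a comparison between pup 2 and pup 1.

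A microRNA is cut from a hairpin in a longer transcript, and the mature strand from either arm of the hairpin pairs with target messenger RNAs mainly through its seed, bases 2 to 8. MicroRNAs that lie in a row in one intron can be cut from a single transcript, although each hairpin may be processed with its own efficiency. Clcn5 encodes a chloride and proton exchanger of endosomes that is prominent in the proximal tubule of the kidney, and loss of the human gene causes Dent disease. The genes of the cluster also lie within CLCN5 in humans.

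The mature sequences are shown because they divide the cluster into relatives, with the seed in capitals. RefSeq (GRCm38.p6) held hairpins for 5 of 5 genes and 9 mature sequences, given here 5′ to 3′ in the order of transcription.
miR-532-3p: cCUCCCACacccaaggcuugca
miR-188-5p: cAUCCCUUgcaugguggaggg
miR-188-3p: cUCCCACAugcaggguuugca
miR-362-5p: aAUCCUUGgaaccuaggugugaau
miR-362-3p: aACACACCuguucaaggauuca
miR-501-5p: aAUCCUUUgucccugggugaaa
miR-501-3p: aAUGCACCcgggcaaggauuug
miR-500-5p: aAUCCUUGcuaucugggugcuuagu
miR-500-3p: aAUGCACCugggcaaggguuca
Another mature strand, miR-532-5p, had no sequence among these entries and is named only. The seed relations of Mir532 given next therefore rest on its 3p strand alone.

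The 9 strands carried 7 different seeds. The seed AUGCACC was shared by miR-501-3p and miR-500-3p, and the seed AUCCUUG by miR-362-5p and miR-500-5p. Of the 1738 mature entries in the table, no others held either seed. From miR-501-3p to miR-500-3p, 18 of 22 bases were identical, with the substitutions C9U, A18G, U21C and G22A counted from 1 at the 5′ end. From the seed of miR-362-3p to the seed of both strands the substitutions were C3U and A4G, and from the seed of miR-362-5p to that of miR-501-5p the substitution was G8U. Between the upstream genes, bases 2 to 9 of miR-532-3p (CUCCCACA) matched bases 1 to 8 of miR-188-3p, so their seeds were offset by 1 base. Outside the cluster, miR-329-3p shared the seed ACACACC with miR-362-3p, and miR-7061-3p, whose gene was not analysed here, shared AUCCCUU with miR-188-5p.

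Counts belong to whole hairpins, so a level cannot be assigned to one arm or one seed. The longest run of bases shared by any pair of hairpins in the cluster was 14, between Mir500 and Mir501. No stretch of 22 bases from any of the 5 hairpins occurred in another GENCODE transcript or RefSeq hairpin. A stretch of 18 bases occurred in 1 to 3 other genes per hairpin, and the rest of the genome was not searched.

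On mm10, Clcn5 (ENSMUSG00000004317.14) occupies bases 7153810 to 7319358 of chromosome X and is read from the minus strand. The hairpins of the cluster spanned 10815 bases on the same strand, from 7237683 to 7248497. They lay together in a single intron of 103648 bases in 3 of the 5 annotated Clcn5 transcripts, where it is intron 2 or intron 3. The other 2 transcripts start 48969 and 49010 bases downstream of the last hairpin and do not include the cluster. GENCODE M21 lists no other microRNA gene within Clcn5. Mir660 is not among those it lists there, so its place was not determined and the gaps given next leave it out.

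Mir532 (ENSMUSG00000070139.1, 7248402 to 7248497) comes first in the direction of transcription. Mir188 (ENSMUSG00000065398.1, 7247989 to 7248056) follows after a gap of 345 bases. After a gap of 5942 bases comes Mir362 (ENSMUSG00000070100.1, 7241982 to 7242046), followed by Mir501 (ENSMUSG00000076251.1, 7241243 to 7241351) after 630 bases. Mir500 (ENSMUSG00000070108.2, 7237683 to 7237774) is last, after a further 3468 bases.

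All 5 genes were detected in both pups, and the pair of hairpins at the upstream end had the highest levels. Levels are given in CPM, counts scaled to a total of 1000000 over all named microRNA genes. The unscaled totals were 3846704 in pup 2 and 5832192 in pup 1. Multimapping reads, 31.0% of all reads in pup 2 and 30.3% in pup 1, are listed apart from gene counts and are not part of these levels. In brackets are 95% Wilson intervals, which cover counting error only, since no molecular identifiers tell copies of a molecule apart. Capture and sequencing may favour some microRNAs over others, so levels set side by side for different genes describe reads and not molecules.

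Mir532 had 2617 counts in pup 2, a level of 680 CPM (655 to 707), and 4154 counts in pup 1, a level of 712 CPM (691 to 734). Its mean level was 696 ± 22.6 CPM (SD, n = 2 pups), rank 86 of the 1973 genes. Of those genes, 696 had a count in at least 1 pup. Mir188 had 2128 counts in pup 2, a level of 553 CPM (530 to 577), and 3679 counts in pup 1, a level of 631 CPM (611 to 652). The mean level of Mir188 was 592 ± 54.9 CPM, at rank 92. Both genes stood in the upper part of the detected microRNAs, and the pups' intervals overlapped for Mir532 but not for Mir188.

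The downstream genes were lower. Mir501 had 794 counts in pup 2, a level of 206 CPM (193 to 221), and 1278 counts in pup 1, a level of 219 CPM (207 to 231), with a mean level of 213 ± 8.99 CPM and rank 138. Mir500 had 541 counts in pup 2, a level of 141 CPM (129 to 153), and 841 counts in pup 1, a level of 144 CPM (135 to 154), with a mean level of 142 ± 2.52 CPM and rank 155. For both of these relatives the pups' intervals overlapped. Mir362, between Mir188 and Mir501 in the intron, was the lowest with 284 counts in pup 2, a level of 73.8 CPM (65.7 to 82.9), and 574 counts in pup 1, a level of 98.4 CPM (90.7 to 106.8). Its mean level was 86.1 ± 17.4 CPM at rank 170, and the pups' intervals did not overlap.

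**Figure D1:**
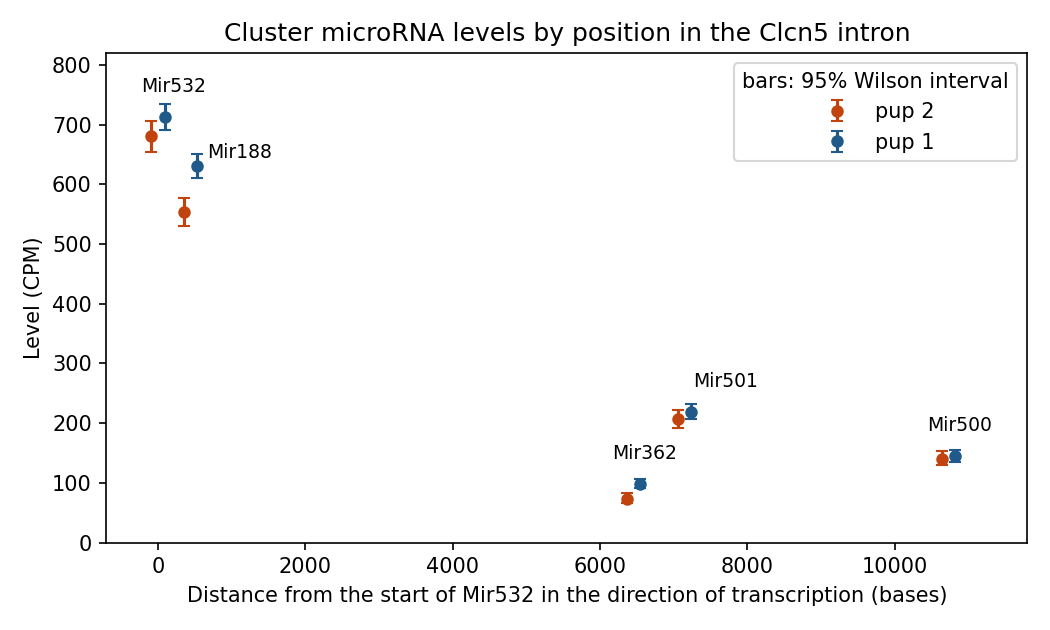
Level in CPM (y axis, starting at 0) of the 5 genes against the distance of the hairpin from the start of Mir532 in the direction of transcription, in bases (x axis), for pup 2 and pup 1 as separate points drawn slightly apart, with 95% Wilson intervals as bars. Mir532 and Mir188 start within 441 bases of each other and sit at 553 CPM or above, and Mir362, Mir501 and Mir500 start between 6451 and 10723 bases downstream and sit at 219 CPM or below.

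The order Mir532, Mir188, Mir501, Mir500, Mir362 was the same in both pups. Mir532 exceeded Mir188 by 1.23-fold in pup 2 and 1.13-fold in pup 1, and the gap of 104 CPM between their means exceeded both SDs. Mir188 exceeded Mir501 by 2.68-fold in pup 2 and 2.88-fold in pup 1, the widest step in the order. Mir501 exceeded Mir500 by 1.47-fold in pup 2 and 1.52-fold in pup 1, and Mir500 exceeded Mir362 by 1.90-fold in pup 2 and 1.47-fold in pup 1. For each pair of neighbours the gap between means exceeded both SDs and the pups' levels did not overlap. The order itself was not tested. From Mir532 to Mir362 the ratio was 9.21-fold in pup 2 and 7.24-fold in pup 1. The levels did not follow the order along the intron strictly, since Mir362 comes before Mir501 and Mir500 but was lower than both.

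Together the 5 genes held 6364 counts in pup 2, a share of 0.165% (0.161 to 0.170), and 10526 counts in pup 1, a share of 0.180% (0.177 to 0.184). The mean share was 0.173% ± 0.0106 (SD, n = 2). Within the cluster, taken as these 5 genes without Mir660, Mir532 and Mir188 supplied 74.6% of the counts in pup 2 and 74.4% in pup 1. Mir532 alone gave 40.3% ± 1.17, Mir188 34.2% ± 1.07, Mir501 12.3% ± 0.237, Mir500 8.25% ± 0.361 and Mir362 4.96% ± 0.700 of the cluster's counts. The share of Mir362 within the cluster was 4.46% in pup 2 (3.98 to 5.00) and 5.45% in pup 1 (5.04 to 5.90), with intervals that did not overlap. For the other 4 genes the intervals of the within-cluster share overlapped between the pups.

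Reads opposite to the genes were absent. The opposite-strand column held 0 counts at each of the 5 genes in both pups, which allows up to 0.780 CPM in pup 2 and 0.514 CPM in pup 1, from the 3 counts that a count of 0 allows. The counts on either strand were therefore equal to those on the strand of the gene.

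**Figure D2:**
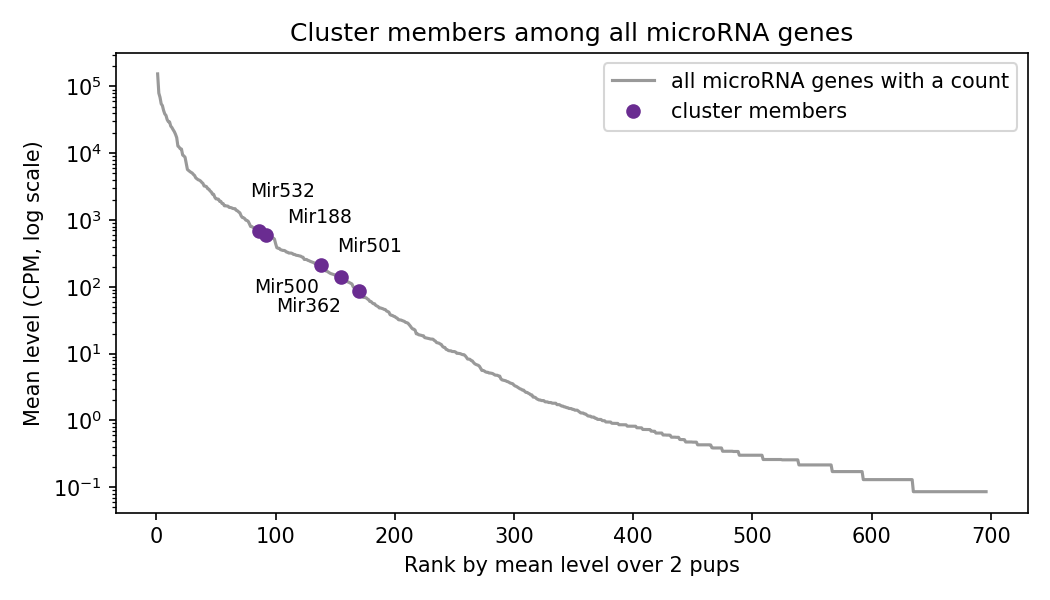
Mean level over 2 pups in CPM (y axis, log scale) of all microRNA genes with a count against their rank (x axis), with the 5 cluster genes as points. Mir532 and Mir188 lie at ranks 86 and 92, and Mir501, Mir500 and Mir362 at ranks 138, 155 and 170.

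With 1 group of samples no pattern over conditions exists, so the genes most like each member were taken as its neighbours in the order of mean level over 2 pups. Mir532 stood between Mir16-2 (708 ± 32.8 CPM), of the miR-15/16 family, and Mir96 (688 ± 2.10 CPM), known from sensory epithelia. Mir188 stood between Mir487b (635 ± 42.3 CPM), of the imprinted Dlk1-Dio3 region, and Mir674 (587 ± 22.1 CPM). Mir501 stood between Mir199b (214 ± 16.5 CPM) and Mir669o (212 ± 14.7 CPM), Mir500 between Mirlet7c-2 (144 ± 13.7 CPM) and Mirlet7a-2 (141 ± 5.15 CPM), and Mir362 between Mir1306 (86.3 ± 1.42 CPM) and Mir190a (85.4 ± 1.97 CPM). None of these 10 gaps was larger than the SD of both genes, so the ranks of the members among all genes are not resolved by 2 pups. The levels of these neighbours also leave out any reads listed as multimapping. Except for Mir96, sharing of 22 bases with other hairpins was not checked for them. Their values therefore describe single genes and not the whole of a microRNA family such as let-7. The seed relative Mir329 had 46.5 CPM in pup 2 and 45.4 CPM in pup 1, below Mir362 in both.

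The cluster was compared with others whose genes also lie in a row. The mean levels of its 5 genes covered an 8.08-fold range. In the miR-322 cluster, also on chromosome X, the range ran 4065-fold over 7 genes, from Mir322 (43791 ± 436 CPM) to Mir450-2 (10.8 ± 0.528 CPM). In the miR-106a cluster, on the same chromosome, it ran 54.6-fold over 6 genes, from Mir106a (280 ± 22.7 CPM) to Mir19b-2 (5.13 ± 1.20 CPM). Mir450-1, Mir450-2, Mir19b-2 and Mir92-2 share 22 bases with another hairpin, so their levels leave out any reads listed as multimapping. The lowest genes without such a stretch were Mir450b (155 ± 16.5 CPM) in the miR-322 cluster and Mir18b (16.5 ± 0.180 CPM) in the miR-106a cluster. In the miR-183 cluster, known from sensory epithelia, it ran 3.02-fold over 3 genes, from Mir182 (2076 ± 204 CPM) to Mir96. These ranges were not tested against each other, and they rest on different numbers of genes. The joint share of the Clcn5 cluster was above that of the cluster of miR-106a (0.0763% ± 0.00552) and below those of the clusters of miR-322 (4.84% ± 0.0239) and miR-183 (0.376% ± 0.0218), by more than the SD of either in each case.

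**Figure D3:**
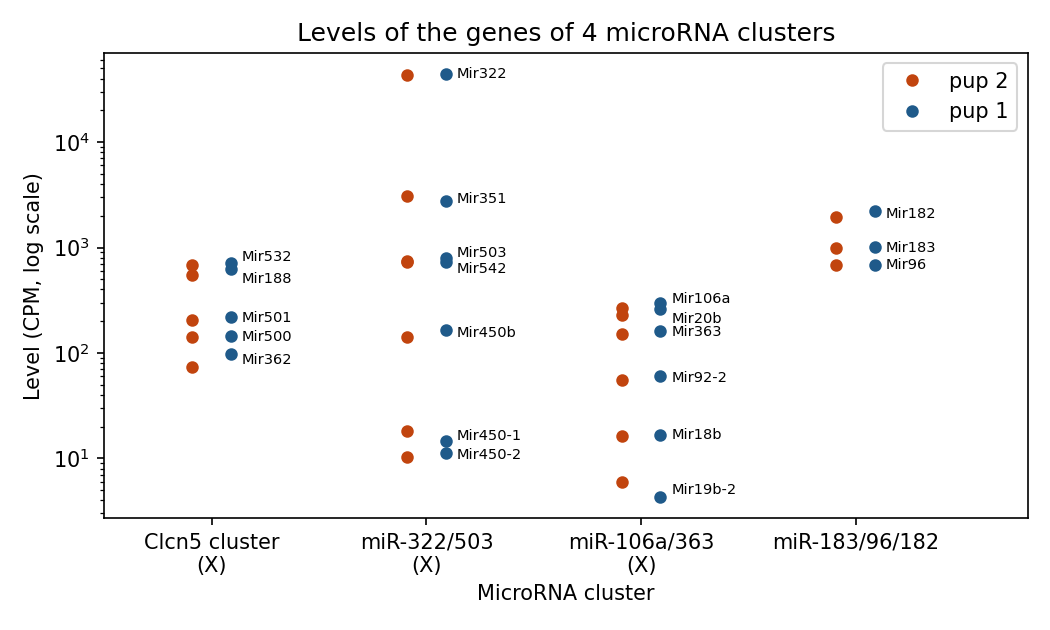
Levels in CPM (y axis, log scale) of the genes of 4 microRNA clusters (x axis), with pup 2 left of pup 1 for each cluster and one point per gene. The Clcn5 genes lie between 73.8 and 712 CPM, while the other X-linked clusters (X) each include a gene below 20 CPM. In the miR-322 cluster those below 20 CPM are Mir450-1 and Mir450-2, whose levels leave out any multimapping reads. The lowest other gene of that cluster is Mir450b, with a mean of 155 CPM.

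Since Clcn5 is a proximal tubule gene, the microRNAs known from the mature proximal tubule were set beside the cluster. Mir192 had 563 ± 54.8 CPM, close to Mir188, while Mir194-2 had 296 ± 18.5, Mir215 10.1 ± 1.45 and Mir194-1 3.70 ± 0.825 CPM. The Clcn5 cluster's share of 0.173% ± 0.0106 was above the 0.0872% ± 0.00340 of the genes of miR-192, miR-194 and miR-215. Mir194-1 and Mir194-2 share 22 bases with another hairpin, so that share leaves out any multimapping reads. Beside the tissue label were set 8 microRNAs of kidney epithelium, which held 4.71% of counts in pup 2 and 4.93% in pup 1. That share rests mainly on Mir30a (21077 ± 1872 CPM), Mir429 (17174 ± 27.8 CPM) and Mir200b (8730 ± 220 CPM). Whether these genes tell kidney from other epithelia was not tested. A list of 13 markers of liver, brain, striated muscle, endocrine and blood cells held 0.0566% in pup 2 and 0.0737% in pup 1. The highest of these 13 was Mir223 of myeloid cells (298 ± 26.1 CPM), and Mir122 of liver had 50.6 ± 9.00 CPM. Of the striated muscle markers, Mir206 had 17 counts in pup 2 and 30 in pup 1, and Mir133b was at 0 counts in both pups. Mir133b shares no 22 bases with another hairpin searched, but the hairpin of Mir133a-1 was not among those searched. Its 0 counts therefore do not bound its level. Mir124a-1, Mir124a-2, Mir124a-3, Mir1a-1 and Mir133a-1 were also listed at 0. Such genes have copies elsewhere in the genome whose reads can be listed as multimapping. These 0 counts therefore do not bound their levels or the share of the 13 markers. In whole kidney, fewer cells of a type and less RNA per cell cannot be told apart, and the host transcript itself was not measured in these small RNA tables.

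Between the pups, all 5 genes had a lower normalised level in pup 2, by small amounts except for Mir362. The counts were compared by an exact two-sided binomial test over all 324 genes whose mean count was 10 or more, with Benjamini-Hochberg adjustment. It compares the reads of 2 libraries and covers counting error only, with no replicate check. Of the 324 genes 33.6% were called, 21.0% as lower and 12.7% as higher in pup 2, so a call is common at this depth. The split depends on the scaling, with 41 genes higher and 68 lower here, against 52 higher and 40 lower with DESeq2 size factors. In the cluster, 3 of 5 genes were called as lower in pup 2 and 0 as higher. All 5 had a mean count above 100, where calls are more common. Of the 217 genes with a mean count of 100 or more, 107 were called, 68 as lower and 39 as higher. The median log2 ratio of pup 2 over pup 1 was -0.11 over the 5 genes and -0.04 over all tested genes. Under this scaling more of the tested genes were lower than higher in pup 2, whether called or not. The shared direction of the 5 genes alone therefore does not set the cluster apart.

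Mir362 fell most within the cluster, with a log2 ratio of pup 2 over pup 1 of -0.43. Its 95% counting interval ran from -0.65 to -0.23, and the exact binomial test gave an adjusted p of 0.000148. Mir188 followed with a log2 ratio of -0.21 (-0.29 to -0.13) and an adjusted p of 4.63e-07 in the exact binomial test. Mir532, with a log2 ratio of -0.09 (-0.16 to -0.02), was barely called, at an adjusted p of 0.0464 by the exact binomial test. That call was lost under 6 of 7 alternatives, among them library totals (adjusted p = 0.180) or DESeq2 size factors (adjusted p = 0.392) in place of TMM, and over the alternatives the adjusted p ran from 0.0323 to 1. Mir501 had a log2 ratio of -0.11 (-0.24 to 0.02) and Mir500 of -0.06 (-0.22 to 0.10), and neither was called, with adjusted p = 0.243 and 0.667 by the exact binomial test. The interval of Mir362 lay below those of Mir532 and Mir500 and overlapped those of Mir188 and Mir501, and no test between genes was made.

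The 2 libraries also differ beyond counting error in general. With the spread between the pups estimated as edgeR's common dispersion, a coefficient of variation of 9.29%, an edgeR exact test called 0 of the 5 genes and 1 of all 324 genes (0.309%). Without adjustment it gave 1 of the 5 genes a p below 0.05, Mir362 with p = 0.0465 by the edgeR exact test, and 14 of all genes. Since the pups' own difference set that dispersion, it does not check any gene independently. Of the 13 markers of other tissues 6 had enough counts for the exact binomial test, which called 3 as lower and 2 as higher in pup 2, against 33.6% called among all tested genes. The red blood cell gene Mir451a, the 1 gene called by the edgeR exact test, had 53.6 CPM in pup 2 and 208 CPM in pup 1. Its counts were 206 in pup 2 and 1213 in pup 1, and its log2 ratio was -1.98. Mir144, its neighbour in the same locus, had 42.9 CPM in pup 2 and 32.2 CPM in pup 1, and went the other way, called as higher at a log2 ratio of 0.39. The part of blood cells in the differences of the cluster was not tested.

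**Figure D4:**
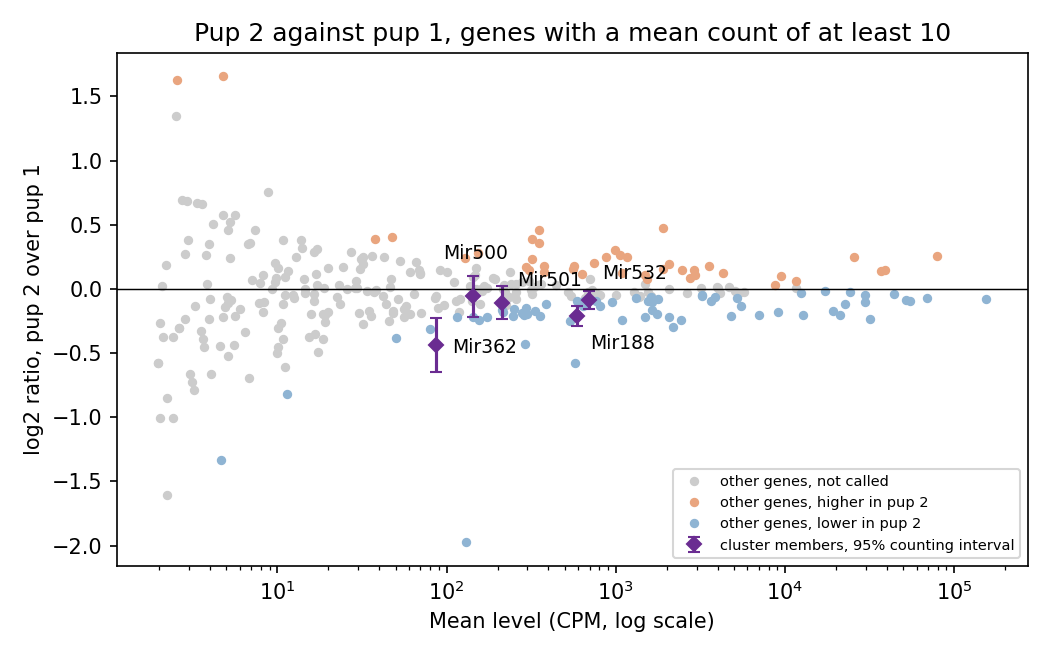
Log2 ratio of pup 2 over pup 1 (y axis) against mean level in CPM (x axis, log scale) for the 324 genes whose mean count was 10 or more, coloured by the call of the exact binomial test, with the 5 cluster genes as diamonds with 95% counting intervals. The diamonds lie between -0.06 and -0.43, and the intervals of Mir500 and Mir501 cross 0.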

How the data were processed

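Small RNA of kidney tissue was sequenced from 2 pups, and the labels give an upper size limit of 30 without its unit. The authors deposited whole-number read counts per microRNA gene, not normalised, made on the mm10 assembly with annotation M4 per the deposited notes. Aligner, trimming and filters were not given in the sources used here. Which of the 3 count columns holds the gene's own strand was read from the values. Library sizes leave out the rows without a gene name. Those were 30.98% multimapping, 8.69% unmapped and 2.92% without a gene in pup 2, and 30.3%, 8.52% and 2.91% in pup 1. Identifiers were matched without version to GENCODE M21, which uses the same assembly, for 1894 of 1973 genes. Sequences came from RefSeq (GRCm38.p6).

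CPM used the total over named genes. Log2 ratios used TMM over all genes with a count (edgeR 4.0.16) and a prior count of 0.5. The binomial test (SciPy 1.17.1, threshold 0.05) was run on simulated counts that held counting error only. That run does not check the test against spread between libraries. Alternatives were other totals, DESeq2 1.42.0 size factors, other count filters, counts on either strand, each pup alone, and edgeR's exact test. The members, the lists and the tests were chosen with earlier results of these data known. Genes named are the members, their rank neighbours, genes that share a seed, and the listed clusters and markers. With 2 pups of 1 litter, SDs cover the spread between these samples only.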

Additional observations from a re-analysis of the deposited data

How the results depend on the processing

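Levels scale with the chosen total. The median level of the 5 genes, 213 CPM, became 123 when scaled by all reads and 252 without Mir10a in the total, and the cluster's share became 0.100% and 0.205% of counts. With 1 pup alone the median level ran from 206 to 219 CPM, the share from 0.165% to 0.180%, and the ratio of Mir532 to Mir362 from 7.24 to 9.21. Under all 8 settings of the pup comparison, the 5 log2 ratios stayed below 0. The median over all tested genes was also below 0, except with DESeq2 size factors. With those factors the ratio of Mir500 came nearest to 0. The exact binomial test called Mir188 and Mir362 under each setting that used it, and Mir532 only on the strand of the gene with TMM over all genes and a minimum mean count of 10 or 100. edgeR's exact test called 0 of the 5 genes and 1 of all 324. Of the 109 genes called, 37.6% were higher in pup 2, against 56.5% of 92 with DESeq2 size factors and 49.0% of 98 with TMM over the tested genes alone, an alternative chosen after seeing the data. No hairpin of the cluster shares 22 bases with another, so that alternative left the share at 0.173%. No paired analysis was possible because the 2 samples form 1 group. The depth behind Mir362, 284 counts in pup 2, leaves it the widest counting interval of the log2 ratio among the 5 genes.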

Other observations

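The position of the cluster on chromosome X led to a count over that chromosome, chosen after seeing the data. Of the 38 tested genes on chromosome X, 14 were lower and 2 higher in pup 2 by the exact binomial test, with a median log2 ratio of -0.10. Without the 5 cluster genes these were 11 lower and 2 higher of 33, again with a median of -0.10. Over all 324 tested genes, 68 were lower and 41 higher, with a median of -0.04. With DESeq2 size factors the chromosome X genes had a median of -0.06, with 9 lower and 4 higher, while the median over all tested genes was 0.00078. With library totals 10 were lower and 2 higher, and edgeR's exact test called 0 as lower and 0 as higher. Many of the chromosome X genes lie in a row in the same clusters, so they are not independent counts. The sex of the pups was not collected, and its part in these values was not tested.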
